A study of Mus musculus with 6 samples.

Results

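Receptors that raise or restrain lipolysis were followed on expression arrays of 3T3-L1 adipocytes, a mouse preadipocyte line that differentiates into fat cells in culture. The set of 9 genes covers the antilipolytic receptors Hcar1, Hcar2, Ffar2, Ptger3 and Adora1, the β-adrenergic receptors Adrb1 and Adrb3, the receptor Gper1 and the natriuretic peptide receptor Npr3. They were selected by name and role, with the DEX against vehicle values of these same arrays already known, so their changes are given as a description without a test. Of the 9 genes, 6 were represented by 12 of the 45281 probes, and 7 of those probes, standing for 5 genes, were detected on at least 3 arrays (detection p-value under 0.05). Adora1, Adrb1 and Adrb3 had no probe with their symbol in the annotation used here and were not analysed here. The 5 genes are thus those that passed a filter on low values, out of 9144 named genes that did so.

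Differentiated cells of this 1 line received either 500 nM dexamethasone (DEX), a synthetic glucocorticoid, for 6 hours, or the ethanol vehicle at 0.05% of the medium volume for the same time. Total RNA was measured on 3 arrays per group. Both groups had spent the preceding day in medium with stripped serum, and both had earlier been differentiated with a cocktail that itself contained DEX, together with methylisobutylxanthine and insulin, so the vehicle cells were not naive to the hormone. The treatments were run in triplicate on 1 batch of arrays, but the sources used here do not say whether a triplicate means separate cultures, so p-values reflect only how far these arrays scattered, and that scatter may be technical.

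Lipolysis in fat cells is driven by cyclic AMP. Receptors coupled to the stimulatory G protein Gs, such as the β-adrenergic receptors, raise it and thereby activate protein kinase A and hormone-sensitive lipase, whereas receptors coupled to the inhibitory G protein Gi lower it. Several Gi-coupled receptors of adipocytes sense metabolites: Hcar1 responds to lactate, Hcar2 to 3-hydroxybutyrate and the drug niacin, and Ffar2 to short-chain fatty acids. Natriuretic peptides act on lipolysis through cyclic GMP in human adipocytes, and Npr3, which is not a G protein-coupled receptor, removes these peptides.

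The treatment labels and the cell type were checked first. All 6 glucocorticoid response genes listed for this purpose (Fkbp5, Pdk4, Per1, Sgk1, Tsc22d3 and Zbtb16) were higher in DEX, with log2 fold changes of 2.47 for Per1 to 6.01 for Fkbp5. Of 12 adipocyte markers, 11 had probes and were detected on every array, and their summed bead signal was 85092 to 106589 in DEX and 84479 to 94533 in vehicle. Of these 11, Plin1, which coats the lipid droplet, was lower (log2 fold change -1.03) and 10 did not pass. At an unadjusted p under 0.05 by limma, 1 of the 11 was higher and 2 were lower, Plin1 included. Of 6 preadipocyte and fibroblast markers, 4 were tested and 0 passed the adjusted threshold by limma, 2 being higher and 0 lower with the unadjusted p under 0.05. Pdgfra (log2 fold change 0.63) and Zfp521 (0.39) had all DEX arrays above all vehicle arrays, whereas Dlk1 (-0.10) and Thy1 (-0.21) overlapped. The summed bead signal of all 6, 16578 to 21506 in DEX and 22303 to 22800 in vehicle, was uncorrected. Dlk1, the brightest tested gene, weighs most in it. Brown adipocyte markers (2 of 5 tested) summed to 595 to 670 in DEX and 720 to 850 in vehicle. This sum was also uncorrected and takes in the background signal of the untested markers. Ucp1 was not detected on enough arrays to be tested. Of the 2 tested, Ppargc1a was lower (log2 fold change -1.27). Cidea went the other way, at 0.54 with overlapping groups, and did not pass. Macrophage and leukocyte markers were at background, with 0 to 1 of 5 detected per array in either group. The part of these marker shifts in the receptor values was not tested. Because the RNA came from whole cultures, fewer cells carrying a receptor transcript and less transcript per cell cannot be told apart.

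The sequences just upstream of the receptors' start sites were examined because 4 of them were lower in DEX together. RefSeq windows (GRCm38.p6) of 250 bases upstream were at hand for 7 of the 9 genes, 11 windows in all; Hcar2 and Adrb3 had no entry. Each window was searched on both strands for the palindromic glucocorticoid response element, which is AGAACA and TGTTCT with 3 bases of any kind between them, and for its half-site AGAACA alone, which the full element contains. It was also searched for inverted repeats described for repression by the glucocorticoid receptor, CTCC followed by GGAGA with no base, 1 base or 2 bases of any kind between. Of all 32851 windows of this length, 0.00913% held the full element, 16.1% the half-site, and 0.231%, 0.588% and 0.566% the repeats with no, 1 and 2 spacer bases. The windows of Hcar1 (chr5:123880004-123880253, minus strand), Gper1 (chr5:139422929-139423178, plus strand) and 1 of the 4 starts of Ffar2 (chr7:30821193-30821442, minus strand) follow, 5′ to 3′, since these genes carry the differences described next. Capitals mark motif matches. The Ffar2 window shown is among those of its 4 starts that held matches. The shares above are per window, so a gene with several windows had more chances of a match.
Hcar1: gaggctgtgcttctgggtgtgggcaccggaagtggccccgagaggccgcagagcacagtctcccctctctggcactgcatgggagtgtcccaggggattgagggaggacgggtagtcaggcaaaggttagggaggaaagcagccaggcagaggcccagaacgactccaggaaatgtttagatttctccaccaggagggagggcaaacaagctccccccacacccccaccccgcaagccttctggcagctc
Gper1: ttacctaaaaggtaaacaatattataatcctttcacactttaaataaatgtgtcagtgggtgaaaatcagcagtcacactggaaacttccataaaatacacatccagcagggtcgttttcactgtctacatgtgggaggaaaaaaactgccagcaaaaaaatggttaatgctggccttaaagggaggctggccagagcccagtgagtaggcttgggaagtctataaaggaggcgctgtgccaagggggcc
Ffar2: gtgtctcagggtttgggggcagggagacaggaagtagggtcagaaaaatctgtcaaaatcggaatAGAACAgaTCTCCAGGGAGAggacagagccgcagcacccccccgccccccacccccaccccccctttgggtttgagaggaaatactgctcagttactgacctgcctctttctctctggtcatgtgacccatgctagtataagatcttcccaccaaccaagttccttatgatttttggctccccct
The Ffar2 window held the half-site AGAACA at base 66 and the repeat CTCCAGGGAGA at base 75, which overlaps its own opposite-strand match TCTCCAGGGAG at base 74. The same letters lay in the overlapping window of another Ffar2 start (chr7:30821140-30821389). A half-site was also found at base 220 of the Npr3 window (chr15:11907372-11907621, minus strand). None of these letters occurred in the other 2 Ffar2 windows or in those of Hcar1, Gper1, Ptger3, Adora1 and Adrb1. A match is a description of the letters and does not show that a factor binds there. A window without a match does not show that none binds at the gene. The full element was rare in all windows, so its absence was likely beforehand. The paper located most glucocorticoid receptor binding regions of 3T3-L1 adipocytes away from start sites.

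Of the 5 receptors measured, Hcar1, Hcar2, Ffar2 and Gper1 were lower in DEX, with every DEX array below every vehicle array, and Npr3 overlapped between the groups. None was higher. In the fit across all genes, 280 of 9144 named genes (3.06%) were lower at an adjusted p under 0.05 by limma and 413 (4.52%) higher, and 1436 (15.7%) had all DEX arrays below all vehicle arrays. The 4 receptors were among both lower sets, as their selection fixed. The median log2 fold change was -2.05 over the 5 receptors, against -0.06 over all 9144 genes. Counted from the deepest fall, Hcar1 was the 3rd of these genes, Gper1 the 5th, Hcar2 the 6th, Ffar2 the 16th and Npr3 number 2435. Levels are log2 signals after background correction and quantile normalization. They are set against each other only between arrays of 1 probe, since probes differ in brightness.

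Hcar1 encodes the lactate receptor, through which lactate made from glucose restrains lipolysis. Its log2 signal was 7.05, 7.13 and 7.79 on the DEX arrays and 9.27, 9.75 and 9.65 on the vehicle arrays. The third DEX array was the highest of its group, and it still lay 1.48 below the lowest vehicle array. The means were 7.33 ± 0.40 in DEX and 9.56 ± 0.25 in vehicle (SD, n = 3 each), a log2 fold change of -2.23 (SE 0.22), or 4.70-fold lower (4.03 to 5.48 at 1 SE on either side). Before any correction, the bead signals were 198 to 286 in DEX and 765 to 955 in vehicle.

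Hcar2, the receptor for niacin and 3-hydroxybutyrate, lies next to Hcar1 on chromosome 5 and is its paralog. Its log2 signal was 7.49, 7.32 and 8.09 on the DEX arrays and 9.68, 9.67 and 9.69 on the vehicle arrays. The vehicle arrays were nearly identical, whereas the DEX arrays spread as for Hcar1, with the third again the highest. DEX cells had 7.63 ± 0.40 and vehicle cells 9.68 ± 0.01 (SD, n = 3 each), a log2 fold change of -2.05 (SE 0.20) or 4.13-fold lower, and the groups were 1.58 apart at their nearest arrays. Bead signals were 216 to 332 in DEX and 870 to 987 in vehicle. The probe sequences of the paralogs were not compared here, so hybridization of one transcript to the other's probe was not tested.

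Ffar2, a receptor for acetate and propionate, had log2 signals of 10.82, 10.51 and 10.43 in DEX and 12.16, 12.28 and 11.99 in vehicle. Here the first DEX array was the highest of its group and the third the lowest, whereas the third was the highest for Hcar1 and Hcar2, and the nearest arrays of the groups were 1.17 apart. The mean was 10.59 ± 0.20 in DEX and 12.14 ± 0.15 in vehicle (SD, n = 3 each), a log2 fold change of -1.55 (SE 0.16) or 2.94-fold lower. The bead signals, 1322 to 1906 in DEX and 4597 to 5074 in vehicle, were far above background in both groups.

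Ptger3, which encodes the Gi-coupled EP3 receptor for prostaglandin E2, was not detected. Its 2 probes gave bead signals of 87.5 to 92.4 and 90.6 to 91.8 in DEX and of 88.1 to 101 and 82.4 to 86.0 in vehicle, with detection p-values of 0.105 to 0.434 and 0.237 to 0.920 over the 6 arrays. Neither a level nor a change of Ptger3 could be read at this signal.

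Gper1, a membrane receptor described as responding to estrogen, varied more between arrays of a group and lay closer to background. Its log2 signal was 6.72, 5.57 and 5.04 on the DEX arrays and 8.28, 8.09 and 7.49 on the vehicle arrays. The first DEX array was well above the other 2, and it lay 0.77 below the lowest vehicle array. The means were 5.78 ± 0.86 in DEX and 7.95 ± 0.41 in vehicle (SD, n = 3 each), a log2 fold change of -2.18 (SE 0.38), or 4.52-fold lower with 3.47 to 5.89 at 1 SE on either side. Bead signals of 106 to 184 in DEX and 271 to 420 in vehicle put the DEX arrays close to background. The probe was detected on all 6 arrays, but its highest detection p was 0.0470, and without background correction the log2 fold change was -1.29.

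Npr3, the clearance receptor for natriuretic peptides, was covered by 6 probes, and 3 of them were detected on enough arrays. The brightest gave log2 signals of 6.34, 5.92 and 5.82 in DEX and 6.60, 6.25 and 5.91 in vehicle, so that the groups overlapped, with a log2 fold change of -0.23 (SE 0.21). The other 2 tested probes had -0.17 (SE 0.24) and -0.04 (SE 0.18), and their groups overlapped too. Bead signals of the brightest probe, 127 to 160 in DEX and 138 to 183 in vehicle, were close to background. The other 2 tested probes were dimmer on average, so a fall of Npr3 could be missed. The remaining 3 Npr3 probes were detected on no array. Together with the Ptger3 probes, these 5 undetected probes had log2 signals of 4.33 to 4.82, below the lowest detected signal of any array (4.97 to 5.05).

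**Figure D1:**
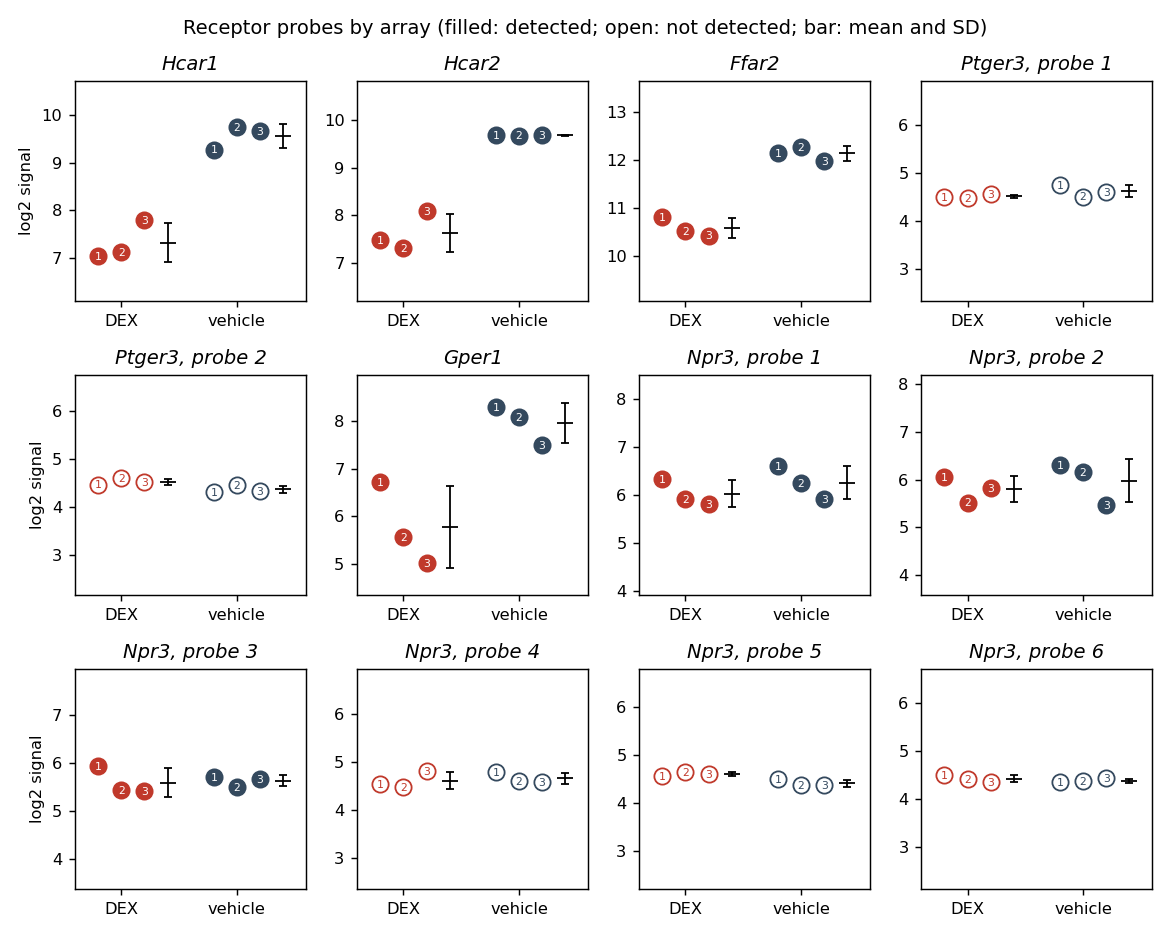
Log2 signal (vertical axis, arbitrary units, 1 panel per probe with the same span of values) of the 12 receptor probes on the 3 DEX arrays (red) and the 3 vehicle arrays (dark blue), numbered by replicate. Filled points were detected, open points were not, and bars give the mean and SD. DEX arrays lie wholly below vehicle arrays for Hcar1, Hcar2, Ffar2 and Gper1, and the groups overlap for the detected Npr3 probes.

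**Figure D2:**
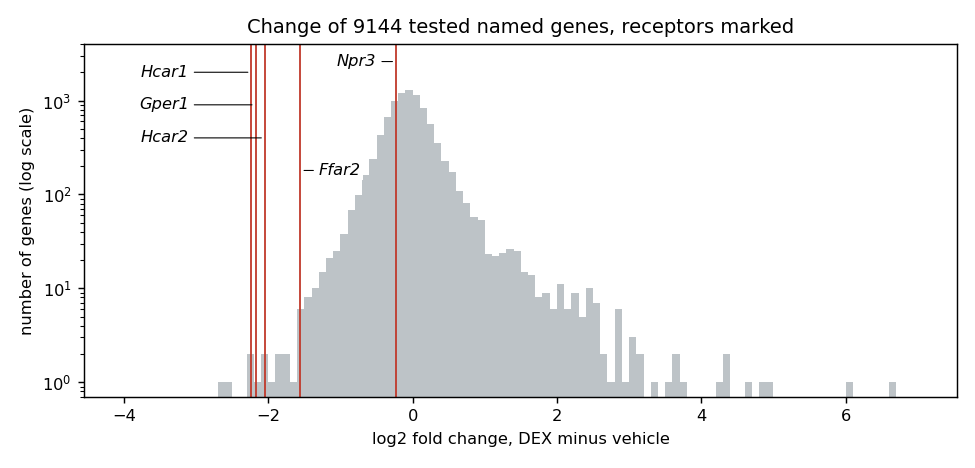
Number of named genes (vertical axis, log scale) by log2 fold change, DEX minus vehicle (horizontal axis), for the 9144 tested genes, with red lines at the 5 receptors. Hcar1, Gper1 and Hcar2 lie between -2.23 and -2.05 in the thin left tail, Ffar2 at -1.55, and Npr3 at -0.23 in the main body.

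The falls also differed between arrays of the same number. From the first to the third pair of DEX and vehicle arrays, the log2 differences were -2.22, -2.62 and -1.86 for Hcar1 and -2.19, -2.34 and -1.60 for Hcar2. For Ffar2 the differences were -1.34, -1.77 and -1.56, and for Gper1 -1.56, -2.51 and -2.46. The second pair gave the deepest difference for each of the 4 receptors. The third pair gave the shallowest for Hcar1 and Hcar2, whereas for Ffar2 and Gper1 it was the first.

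Each gene's profile over the 6 arrays, centred on its own mean, was compared with that of Hcar1, and likeness was measured as the root mean square difference in log2 signal. Among 9143 other named genes the nearest was Hcar2, at 0.19. It was followed by Spon2, a secreted matrix protein, at 0.31, by Dusp4, a phosphatase of MAP kinases, and the transcription factor Glis3, both at 0.37, and by the adaptor protein Abi3 at 0.40. Ffar2 was at place 17 (0.50), Gper1 at place 157 (0.78) and Npr3 at place 3801 (1.12). The measure takes in the depth of the fall as well as the order of arrays within a group. The places of the receptors thus partly restate falls that were known when they were selected.

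The falls of Hcar1, Hcar2 and Gper1 were shallower without background correction, at -1.81, -1.71 and -1.29, whereas Ffar2 was at -1.51. In the values that the authors had processed with lumi, the log2 fold change was -1.88 for Hcar1, -1.76 for Hcar2, -1.52 for Ffar2 and -1.39 for Gper1. All 4 were negative under 11 alternatives. Leaving out a single array could not change the sign, since the groups of these 4 did not overlap. The replicate block leaves the fold itself unchanged. These alternatives therefore show only how far the fold moved. Hcar1 ranged between -2.47 and -1.81, Hcar2 between -2.27 and -1.71, and Ffar2 between -1.71 and -1.48. Gper1 had the widest range, -2.65 without the first DEX array and -1.29 without background correction. Npr3 ranged between -0.40 and -0.06.

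**Figure D3:**
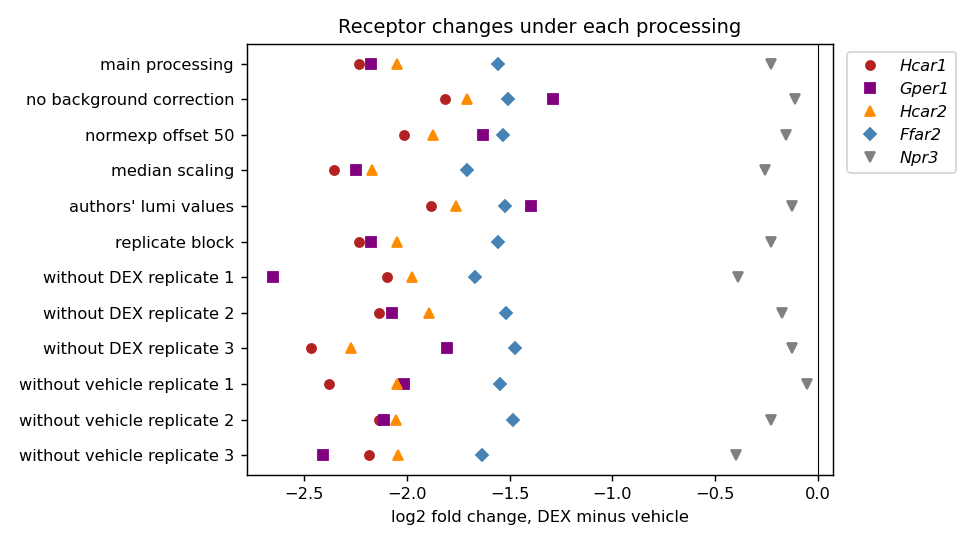
Log2 fold change, DEX minus vehicle (horizontal axis), of the 5 receptors under the main processing and 11 alternatives (rows). Every value lies left of 0. Ffar2 stays within -1.71 to -1.48, Npr3 lies nearest to 0, and Gper1 moves most, between -2.65 and -1.29.

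Other receptors that act on fat cells, most of them coupled to G proteins, were listed by role, 40 genes of which 32 had probes and 11 were tested. This list, like those of G protein genes and ligand genes below, was made with earlier results of these data known. The shares and p-values are therefore a description and do not test the lists. Mc5r and Mc2r were higher in DEX, Sucnr1 was lower, and 8 did not pass an adjusted p under 0.05 by limma (18.2% higher and 9.09% lower, beside 4.52% and 3.06% of all genes; median log2 fold change 0.06). Mc5r, a Gs-coupled melanocortin receptor, had log2 signals of 7.67, 8.12 and 8.95 in DEX and 4.83, 5.47 and 6.01 in vehicle, where 2 of 3 arrays detected it. All DEX arrays were above all vehicle arrays, with a log2 fold change of 2.81 (SE 0.36, adjusted p = 0.00127 by limma, 1.06e-05 to 0.0339 over the alternatives). The first vehicle array lay at background, and the log2 fold change of Mc5r was 1.69 without background correction, 1.83 with the lumi values and at most 3.10. Mc2r, the Gs-coupled receptor for ACTH, had 8.70, 9.15 and 9.21 in DEX and 7.59, 7.83 and 8.16 in vehicle, again without overlap. Its log2 fold change was 1.16 (SE 0.20, adjusted p = 0.00761 by limma, 0.00109 to 0.0495 over the alternatives).

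Sucnr1, the succinate receptor and like Hcar1 coupled to Gi, had log2 signals of 6.60, 6.52 and 6.61 in DEX and 7.75, 8.19 and 8.00 in vehicle. The DEX arrays lay close together and all below vehicle, with a log2 fold change of -1.40 (SE 0.16, adjusted p = 0.000597 by limma, 0.000184 to 0.00534 over the alternatives). The growth hormone receptor Ghr and the insulin receptor Insr, the brightest of those that did not pass, had log2 fold changes of 0.06 and 0.19 (adjusted p = 0.864 and 0.654 by limma, 0.623 to 0.936 and 0.438 to 0.945 over the alternatives). With the replicate number as a block, the count of lower receptors was 2 and took in Ffar4, the receptor for long-chain fatty acids, whose log2 fold change of -1.26 had an adjusted p of 0.152 by limma without the block. Without the third DEX array the count was 3, Ffar4 and Ptgfr included.

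Downstream of the receptors, 28 of 57 listed G protein subunits and regulators were tested, and by limma 2 were higher in DEX (7.14%, beside 4.52% of all genes) and 0 lower (beside 3.06%). At an unadjusted p under 0.05, 5 were higher and 3 lower, and the median log2 difference was -0.08. Both genes past the threshold belong to the regulators of G protein signaling, which speed the return of Gα subunits to their inactive state. Rgs2 had log2 signals of 10.35, 10.59 and 10.42 in DEX and 8.75, 9.08 and 9.44 in vehicle. The groups did not overlap, and the log2 fold change was 1.36 (SE 0.19, adjusted p = 0.00235 by limma, 0.00116 to 0.0240 over the alternatives), with 1.16 for its other tested probe.

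Rgs3 had 9.54, 9.24 and 9.15 in DEX and 6.95, 6.95 and 7.19 in vehicle on its brightest probe. This was a log2 fold change of 2.28 (SE 0.16, adjusted p = 3.43e-05 by limma, 2.28e-05 to 0.00121 over the alternatives), without overlap. Its other 3 tested probes did not follow it, with log2 fold changes of -0.02, -0.19 and -0.32 that did not pass. They lay near the lowest detected signals (4.97 to 5.05), with mean log2 signals of 4.96 to 5.24 in DEX and 4.97 to 5.57 in vehicle. The change of Rgs3 therefore rests on 1 probe only. The γ subunits Gng12 and Gng10, the brightest that did not pass, had log2 fold changes of 0.01 and -0.07. With the replicate number as a block, 4 genes were higher (Gng7 and Grk5 in addition) and 1 was lower (Gng8). Gnaq, whose log2 fold change of 0.36 did not pass, made the count of higher genes 3 without background correction, with the lumi values and with no detection filter, and Grk5 did so without the first DEX array.

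Genes that supply or clear the receptors' ligands were tested for 13 of 38 listed. None was higher by limma (0 at an unadjusted p under 0.05), 1 was lower (7.69%, beside 3.06% of all genes) and 12 did not pass, and the median log2 difference was 0.01. The lower one was Ptges, a synthase of prostaglandin E2, the ligand of the undetected Ptger3. Its log2 signal was 7.16, 6.66 and 6.63 in DEX and 7.46, 7.89 and 7.74 in vehicle, without overlap, a log2 fold change of -0.88 (SE 0.19) or 1.84-fold lower (adjusted p = 0.0233 by limma, 0.00798 to 0.123 over the alternatives). A second Ptges probe had -0.80 and did not pass. The call of Ptges was lost with no detection filter (adjusted p = 0.0887 by limma) and without the second DEX array (0.0968), the third DEX array (0.0625), the second vehicle array (0.123) or the third (0.0854). Ldha, which makes lactate, the ligand of Hcar1, and Oxct1, which consumes ketone bodies, had log2 fold changes of 0.01 and 0.05 that did not pass.

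**Figure D4:**
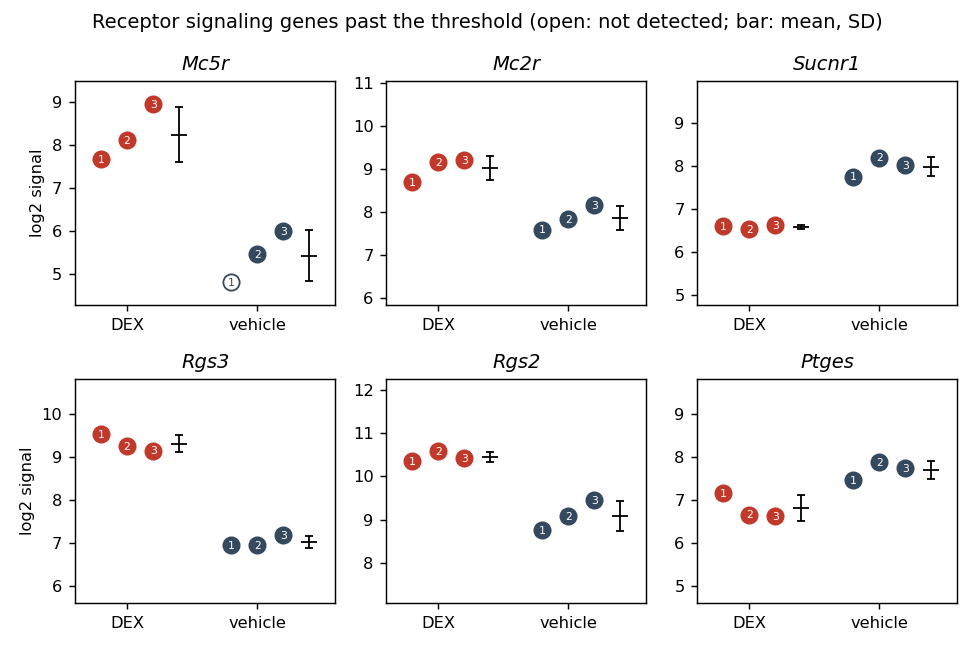
Log2 signal (vertical axis, arbitrary units) of the 6 genes of receptor signaling that passed the threshold on their brightest probe, on the 3 DEX arrays (red) and the 3 vehicle arrays (dark blue), numbered by replicate. Filled points were detected, the open point was not, and bars give the mean and SD. DEX arrays lie above vehicle arrays for Mc5r, Mc2r, Rgs3 and Rgs2, and below them for Sucnr1 and Ptges.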

How the data were processed

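Total RNA of 3T3-L1 adipocytes, 3 DEX and 3 vehicle samples, was hybridized to Illumina MouseWG-6 arrays of 1 batch. For every probe and array the authors deposited an intensity, the mean bead signal on the linear scale without background correction or normalization. A detection p-value against the negative control beads was deposited beside it. The authors also deposited intensity values pre-processed with lumi, with options not given in the sources used here. No column of per-sample values was left unused (0), and no read depth applies. Per array, 15983 to 16523 probes were detected in DEX and 15800 to 16512 in vehicle, and the number of arrays limits the precision.

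Background was modelled with normexp (offset 16), for which limma used the detection p-values, before quantile normalization and log2 transformation. Quantile normalization assumes like signal distributions, and the offset compresses folds of dim probes. The 16317 probes detected (p under 0.05) on at least 3 of 6 arrays were tested with limma 3.58.1 in R 4.3.3 (lmFit, eBayes, two-sided), with Benjamini-Hochberg adjustment over these probes. A gene was counted by its tested probe of highest mean. Log2 signals correlated at 0.974 to 0.994 within groups and at 0.958 to 0.978 between groups. Of the probes, 34885 carried 1 gene symbol, 18 several and 10378 none. Figures were drawn in matplotlib 3.10.9 with pandas 2.3.3 and numpy 2.4.6 under Python 3.11.15.

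The receptors and gene lists were chosen with earlier results of these data known. Genes were named by a rule: all receptors of the set, from each of the 3 role lists up to 4 of the most changed genes that passed and up to 2 of the brightest that did not, the 5 genes most like Hcar1, and the glucocorticoid response genes. Genes of the role lists whose call changed with a setting are named after their values were seen. So are Plin1, the 2 tested brown adipocyte markers and the 4 tested preadipocyte and fibroblast markers.

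The labels number the replicates, but do not say that numbers mark pairs. Deviations from the group means correlated at 0.44, 0.30 and 0.25 where DEX and vehicle arrays shared a number, and at -0.37 to 0.10 where they did not, so the numbers were also used as a block. On data simulated from the 16317 probes of DEX against vehicle, 50 probes were changed at each fold. Of those changed 1.5, 2, 3 and 4 fold, 4%, 54%, 88% and 98% were recovered. The adjusted p depends on how many probes change, so these shares need not hold for the data themselves. The alternatives were no background correction, an offset of 50, median scaling, the lumi values, no detection filter, a change over 1.5 fold as a second criterion, the replicate block and each array left out in turn.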

Additional observations from a re-analysis of the deposited data

How the results depend on the processing

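With 3 arrays per group, changes of 1.5 and 2 fold were often missed in simulation, where few probes changed. DEX values of Gper1 lie near background, where the correction sets the fold. All 5 receptor log2 fold changes stayed negative under the 11 alternatives that change the fold or its spread. For the 4 lower receptors this was fixed in advance for the replicate block and for each array left out. The receptors were chosen with these values known, so their place in the lower set is a description and no test. Over all 13 alternatives, the 4 lower receptors stayed in that set except with no detection filter, where Gper1 was lost and 3 remained. The median log2 fold change of the receptors was -1.51 without background correction, -1.63 with an offset of 50 and -1.52 with the lumi values, and -2.05 to -1.80 with 1 array left out. Under those 3 treatments of the background, 1 G protein gene (Gna11) was lower. Median scaling gave 441 lower genes, with 44.1% of calls higher against 59.6% in the main setting, and moved the median of all probes to -0.13. With no detection filter, 0 ligand genes were lower. In the replicate block, which uses the pairing by number, 544 genes were lower against 280. There 2 other receptors were lower, and 4 G protein genes were higher and 1 lower. The lower set held the same 4 receptors and not Npr3. With 1 array left out, 246 to 448 genes were higher and 88 to 356 lower (88 and 246 without the second vehicle array, and 135, 161 and 132 lower without DEX array 2, vehicle array 1 and vehicle array 3). Likewise 1 to 3 other receptors and 0 to 1 ligand genes were lower, and 2 to 3 G protein genes higher. The lower ligand gene without the third DEX array was Plaat3 and not Ptges. The cause of these differences was not tested.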
